A study of Homo sapiens with 5 samples.

Results

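The ERK feedback genes are genes that the RAS-ERK signalling pathway induces and whose products act back on it, most of them as inhibitors. The 10 genes followed here were 4 dual-specificity phosphatases (DUSP1, DUSP4, DUSP5 and DUSP6), 3 Sprouty genes (SPRY1, SPRY2 and SPRY4), 2 SPRED genes (SPRED1 and SPRED2) and IER3, out of 20033 protein-coding genes in GENCODE release 44. They were named as a list, with no threshold on the measured values. For each, 3 kinds of regions of open chromatin were taken: those within 1000 bp of a transcription start site (TSS) of any transcript of the gene, called promoter hotspots, those overlapping the gene, and those whose midpoint lay nearer to a TSS of the gene than to that of any other protein-coding gene and within 100 kb of it, called assigned hotspots. Together these were 164 of the 181723 hotspots of the list. All 164 were assigned hotspots, 47 overlapped a gene of the group and 20 were promoter hotspots.

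Growth factors such as EGF activate RAS through receptor tyrosine kinases, and RAS activates the kinases RAF, MEK and ERK in turn. ERK induces genes whose products act back on the pathway. DUSPs remove the activating phosphates from MAP kinases, Sprouty proteins act between the receptor and RAF, and SPRED proteins bring neurofibromin, which turns RAS off, to the membrane. The factors known to connect ERK to such genes include SRF with its ETS-family partners, AP-1, and the repressor Capicua (CIC), which leaves its sites when ERK is active.

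The regions came from ATAC-seq of MCF10A, an immortalized, non-tumorigenic line of human mammary epithelial cells. Cells were kept with EGF at 20 ng/ml, 5% horse serum, insulin at 10 µg/ml, hydrocortisone at 0.5 µg/ml and cholera toxin at 100 ng/ml. Open chromatin was thus measured with a growth factor of the pathway present, and no culture without EGF was compared. The activity of the pathway itself was not measured. All 5 replicates were of this 1 group, and the deposited list pools them. It gives for each hotspot a position on hg38 and a score, in which a higher value is taken as a stronger enrichment of reads and whose scale is not given in the sources used here. Without values per replicate or depth, no error and no test can be given, and every comparison below is a description of 1 list. The list carried promoter hotspots at 5 of 5 epithelial marker genes (KRT5, EPCAM, CDH1, ITGA6 and LAMB3), with strongest scores between 23.7 and 35.3. It carried them at 2 of 5 markers of other cell types (8.67 at ALB and 4.47 at NEUROD1, none at PTPRC, CD3E and DCX). Of all protein-coding genes 77.2% had a promoter hotspot, and the median of their strongest scores was 20.4.

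All 10 ERK feedback genes had a promoter hotspot, against 77.2% of all protein-coding genes (15461 of 20033), and a full count of 10 is read against that high share. The regions stood further from the background in width. The strongest promoter hotspot was at least 1500 bp wide at 7 of the 10 genes. That was so at 16.6% of all genes with a promoter hotspot (2570 of 15461). The median width was 2196 bp in the group, against 910 bp. Among the 7, DUSP1 (4387 bp) and SPRY4 (2746 bp) lie on chromosome 5 beyond 120 Mb. The list held 128 hotspots per Mb there, against 43.1 in the rest of that chromosome. The width count was not recomputed without DUSP1 and SPRY4. The scores stood closer to the background: the median over the 10 genes of the highest promoter score was 22.9, against 20.4 over all genes. Among the 7251 genes whose strongest score lay in the range of the 10 genes, 17.1% reached 1500 bp and the median width was 966 bp, close to the shares over all genes.

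**Figure D1:**
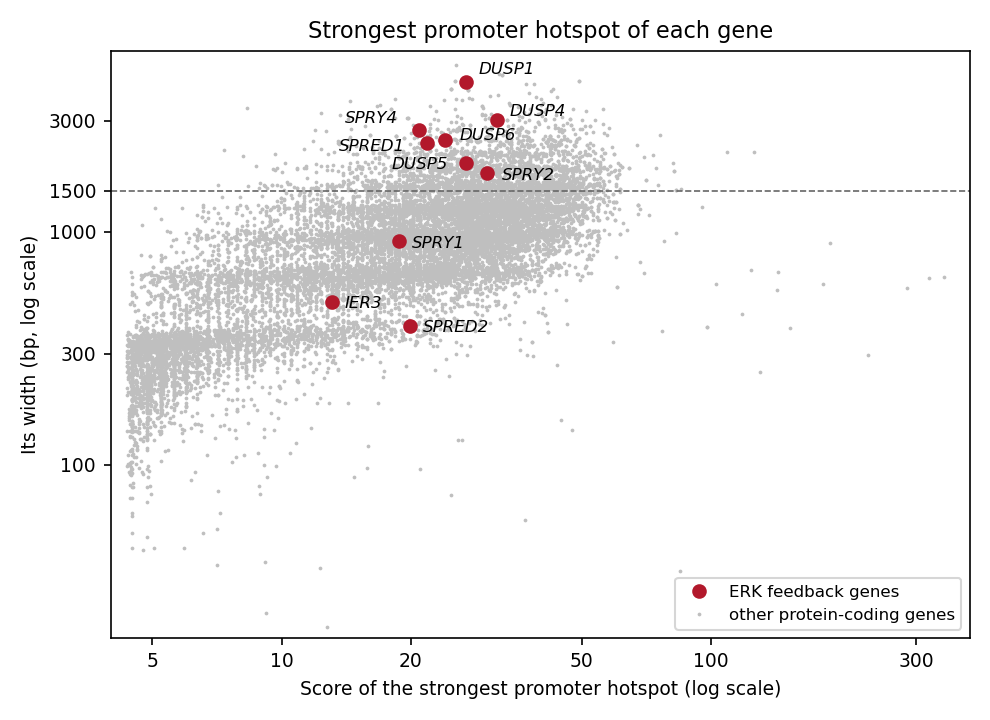
Score (x axis, log scale) against width in bp (y axis, log scale) of the strongest promoter hotspot of each gene. Red points are the 10 ERK feedback genes, grey points all other protein-coding genes with a promoter hotspot, and the dashed line marks 1500 bp. Of the red points 7 lie above the line, at scores between 20.9 and 31.8, and SPRY1, SPRED2 and IER3 lie below it.

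DUSP1 and DUSP4 held the widest promoter regions of the group. DUSP1 encodes a nuclear phosphatase of p38, JNK and ERK and is an immediate-early gene. A single promoter hotspot of 4387 bp with a score of 26.9 (chr5:172768425-172772811) ran from 1616 bp before the gene start to 2770 bp behind it and covered 89.4% of the gene of 3.1 kb. The strongest promoter hotspot was wider at 8 of the other genes with one. DUSP4 encodes a nuclear phosphatase related to DUSP1. Its strongest promoter hotspot had the highest score of the group, 31.8, and a width of 3010 bp, from 1551 bp before to 1458 bp behind the gene start. A further promoter hotspot of 1259 bp with a score of 10.8 lay at a TSS inside the gene.

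DUSP5 and DUSP6 encode phosphatases with a preference for ERK, the one in the nucleus and the other in the cytoplasm. The promoter hotspot of DUSP5 (chr10:110497321-110499295) was 1975 bp wide with a score of 26.9, equal to that of DUSP1 at this rounding. It held 2 CArG boxes, the sites of SRF, directly next to each other and centred 66 and 76 bp upstream of the gene start. In the group, 1 of the 20 promoter hotspots (5%) held a CArG box, against a mean of 4.46% over promoter hotspots of the same widths. The stretch is printed because it is the one run in the promoter hotspots of the group with a CArG box, which was also present in 7.74% of the 749 promoter hotspots of this width. It lies at chr10:110497812-110497861, forward strand of hg38, with both boxes in capitals.
DUSP5 start: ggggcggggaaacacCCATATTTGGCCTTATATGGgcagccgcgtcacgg
At DUSP6 the promoter hotspot (chr12:89350659-89353150) was 2492 bp wide with a score of 24.0. A neighbour of 888 bp with a score of 13.1, centred 1.56 kb upstream of the gene start, held a single CArG box. Of the 144 assigned hotspots of the group away from promoters, 3 (2.08%) held a CArG box, against a mean of 1.48% at the same widths. The others lay 89.6 and 87.0 kb upstream of DUSP5.

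Of the Sprouty genes, SPRY2 and SPRY4 had wide promoter hotspots and SPRY1 did not. SPRY2 has been studied as an inhibitor of FGF receptor signalling. It had a hotspot of 1783 bp with a score of 30.1 (chr13:80339924-80341706) and a smaller one of 630 bp with a score of 12.1 further inside. At SPRY4 a hotspot of 2746 bp with a score of 20.9 (chr5:142323985-142326730) covered 5 of the 6 annotated TSSs. Its second promoter hotspot, of 670 bp with a score of 4.99, rested on the TSS of a transcript with a retained intron and was lost when TSSs of protein-coding transcripts alone were used. At SPRY1 the open chromatin was split: 360 bp with a score of 14.6 at the gene start, 277 bp with 6.74, and 909 bp with 18.8 (chr4:123398228-123399136), centred 1.89 kb inside the gene at its other TSSs.

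The SPRED genes differed from each other. SPRED1 had a hotspot of 2417 bp with a score of 21.8 (chr15:38251231-38253647) and a second one of 787 bp with a score of 9.37 in its first intron. SPRED2 had 5 promoter hotspots, the most of the group, and all were narrow, between 211 and 813 bp. The one at the gene start (chr2:65432345-65433157) had a width of 813 bp and a score of 14.6. The highest score, 19.9, belonged to a hotspot of 393 bp that was 64.9 kb inside the gene (chr2:65367536-65367928), beside TSSs of shorter transcripts. IER3, a small immediate-early protein that is itself phosphorylated by ERK, had the lowest promoter score of the group, 13.1, in a hotspot of 501 bp (chr6:30744147-30744647) that covered 29.8% of the 1.35 kb gene. Over the 1822 genes of at most 6 kb with a promoter hotspot, the median share of the gene covered by hotspots was 18.4%.

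**Figure D2:**
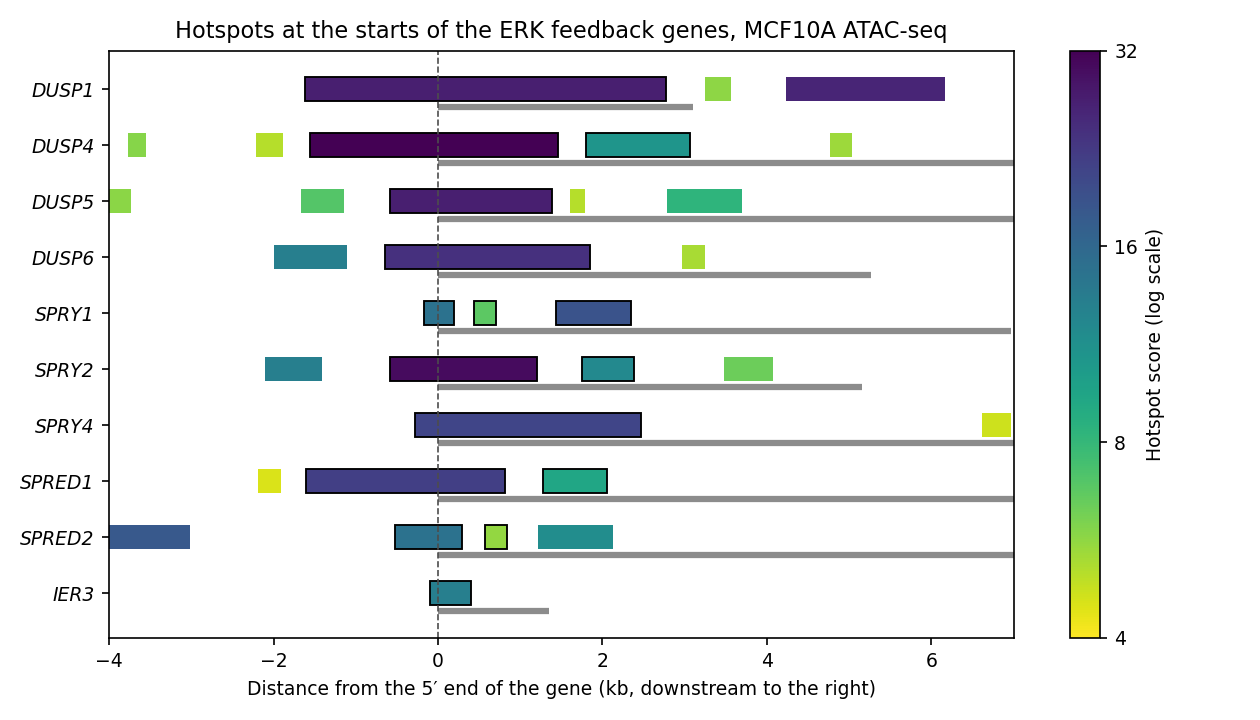
Hotspots around the start of each ERK feedback gene (x axis: distance from the gene start in kb, in the direction of transcription). Boxes are hotspots, coloured by score on a log scale, outlined where they are promoter hotspots, and grey bars are the genes. The boxes of DUSP1 (4387 bp) and DUSP4 (3010 bp) are the widest, IER3 has 1 box of 501 bp, and the promoter hotspots of SPRED2 and SPRY4 further than 7 kb inside the genes are not in view.

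Several promoter hotspots were shared with a gene of another type. A hotspot was counted as shared where a TSS of the other gene lay in it or within 1000 bp of it. The hotspot of DUSP5 also lay at the divergent transcript DUSP5-DT, that of SPRY4 at SPRY4-AS1 and that of IER3 at HCG20, all long noncoding RNAs, and the strongest hotspots of DUSP1, DUSP4 and DUSP6 each lay at 2 noncoding genes without a symbol. None was shared with another protein-coding gene. The same counts were not made over all promoter hotspots, so these are not read further.

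The sites of CIC, the letters TGAATGAA or TGAATGGA on either strand, were searched because CIC is the repressor through which ERK is known to release several of these genes. They occurred in 4 of the 20 promoter hotspots, which is 20.0%, against a mean of 6.63% over promoter hotspots of the same width (within 10%). These 4 were the strongest hotspots of DUSP4 (2 sites), DUSP6 (1 site) and SPRY4 (1 site) and the first-intron hotspot of SPRED1 (3 sites). At those widths 13.9%, 10.9%, 16.7% and 5.01% of promoter hotspots held at least 1 site. With 4 hotspots the share is loosely set, and the hotspots away from promoters did not share it: 5 of 144, 3.47%, had a site, against 3.60% at the same widths. All sequences are printed 5′ to 3′ on the forward strand of hg38 with the sites in capitals, so that a site on the other strand reads as TTCATTCA or TCCATTCA.

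The printed stretches are the CIC sites in promoter hotspots of DUSP6, SPRY4 and SPRED1, at chr12:89352294-89352321 (5′ UTR of DUSP6, 194 bp behind the gene start), chr5:142325275-142325322 (1157 bp behind the start of SPRY4), and chr15:38254482-38254529, chr15:38254730-38254777 and chr15:38254753-38254800 (between 1669 and 1940 bp behind the start of SPRED1).
DUSP6 site: tcctccccagTGAATGAAatccaattaa
SPRY4 site: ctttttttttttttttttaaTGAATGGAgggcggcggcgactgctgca
SPRED1 site a: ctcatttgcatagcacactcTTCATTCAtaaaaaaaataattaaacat
SPRED1 site b: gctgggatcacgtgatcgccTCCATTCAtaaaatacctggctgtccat
SPRED1 site c: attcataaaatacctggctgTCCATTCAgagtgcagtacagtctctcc
The sites b and c of SPRED1 overlap in their printed flanks and start 23 bp apart.

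The cAMP response element, TGACGTCA, was found in 3 of the 164 hotspots (1.83%), all 3 of them hotspots of DUSP1, against a mean of 0.774% of all hotspots of the same widths. It was in 1 of the 20 promoter hotspots (5%), against 3.80%, and in 2 of the 144 others (1.39%), against 0.318%. Of the 12 promoter hotspots as wide as that of DUSP1 (within 10%, itself included), 16.7% held the site. Cholera toxin in the medium raises cAMP, and the site is bound by CREB and ATF factors. One site lay in the promoter hotspot, 121 bp upstream of the gene start (chr5:172771293-172771340), and the others 24.3 kb upstream (chr5:172795431-172795478) and 56.1 kb downstream (chr5:172715104-172715151). They are shown because no other gene of the group had such a site in its hotspots.
DUSP1 start: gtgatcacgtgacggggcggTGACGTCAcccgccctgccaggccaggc
DUSP1 upstream: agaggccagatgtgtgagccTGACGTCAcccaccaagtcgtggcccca
DUSP1 downstream: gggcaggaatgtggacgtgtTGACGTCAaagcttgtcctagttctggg
The glucocorticoid response element, searched by its name as the palindrome with 3 free bases in its middle, was found in 0 of the 164 hotspots, against a mean of 0.805% at the same widths, a share at which few matches would be found in 164 hotspots.

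Away from the promoters, the 10 genes had 144 assigned hotspots. Most genes of the group had many: SPRED2 had 33 assigned hotspots in all, SPRY4 28, DUSP1 23, DUSP5 22, DUSP4 20, SPRY1 13, DUSP6 and SPRY2 8 each, SPRED1 6 and IER3 3. The median was 16.5, against 5 over all protein-coding genes. The stretch of genome for which the gene was the nearest measured between 66.8 and 251 kb. Per 100 kb of it the median was 9.76 hotspots in the group, against 8.0 over all genes. DUSP1, at 23.8 per 100 kb, was higher than 94.0% of all genes, and SPRED1, at 2.995, was higher than 17.4%.

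DUSP1 and SPRY4 lie in the part of chromosome 5 beyond 120 Mb, where the list held 128 hotspots per Mb, against 43.1 per Mb in the rest of that chromosome. Within 0.5 Mb on either side of their starts there were 154 and 150 hotspots, against a median of 88 over all genes. SPRY4, with 14.2 assigned hotspots per 100 kb of its own stretch, stood at the density of its surroundings (15 per 100 kb), while DUSP4 (13.8 against 7.30), SPRED2 (13.1 against 8.30), DUSP5 (16.4 against 10.6) and DUSP1 (23.8 against 15.4) were denser than theirs. The ratio was between 0.947 and 1.32 at the other genes, SPRY4 included. It was not computed over all protein-coding genes, so it is not read as a trait of the group. Without SPRY4 and DUSP1 the median count of assigned hotspots was 10.5. When each hotspot was given to the nearest gene of any type, noncoding genes included, 64 of the 164 stayed with the group and the median was 5.5, against 3 over all protein-coding genes.

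**Figure D3:**
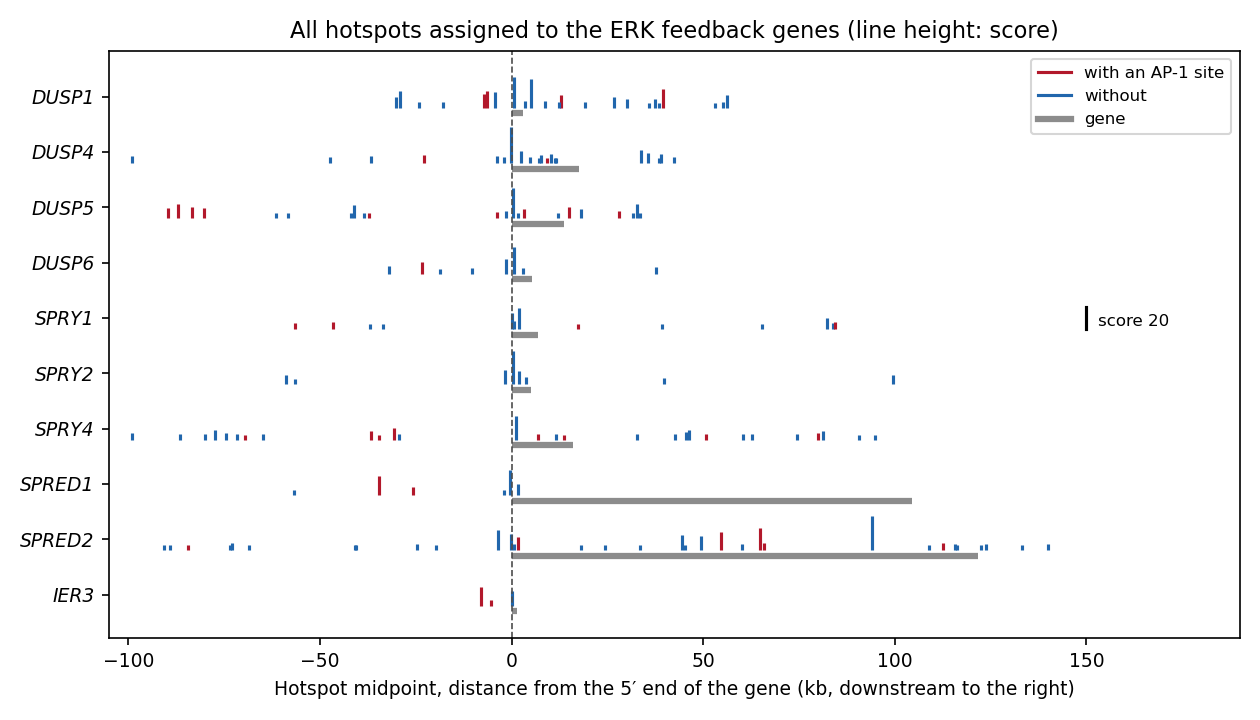
All 164 hotspots assigned to the ERK feedback genes (x axis: midpoint, kb from the gene start in the direction of transcription). Line height is the score, with a bar for a score of 20, red lines hold an AP-1 site, blue lines do not, and grey bars are the genes. The group of 4 red lines far upstream of DUSP5, the tall blue line 94.0 kb inside SPRED2 and the dense row at SPRY4 are in view.

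The strengths of the hotspots away from promoters were those of the list at large: their median score was 5.53, against 5.62 for all hotspots away from promoters, and 25 of the 144 (17.4%) had a score of at least 10, against 15.7%. A few stood out within the group. The highest score, 30.6, belonged to a hotspot of 809 bp in an intron of SPRED2 (chr2:65338253-65339061), 94.0 kb inside the gene, and exceeded that of each promoter hotspot of SPRED2. DUSP1 had a hotspot of 1933 bp with a score of 25.7 behind the end of the gene (chr5:172765036-172766968), 5.19 kb from the gene start, nearly as strong as its promoter hotspot. A hotspot of 1245 bp with a score of 18.02 lay 3.64 kb upstream of SPRED2 (chr2:65435653-65436897). At SPRED1, a hotspot of 640 bp with a score of 17.3 lay 34.6 kb upstream (chr15:38217912-38218551). At IER3, a hotspot of 442 bp with a score of 16.1 lay 7.98 kb upstream (chr6:30752303-30752744), above the score of the IER3 promoter. IER3 and SPRED2 were the members whose highest score lay away from their promoters.

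By contrast, SPRY4 had the second most hotspots of the group but few strong ones: of its 26 hotspots away from promoters 1 had a score of at least 10, against 8 of 22 at DUSP1 and 5 of 21 at DUSP5. SPRY1 had none with such a score among 10, and its highest was 9.37, 82.2 kb downstream of the gene start. SPRED1, a gene of 104 kb, was overlapped by 2 hotspots, both promoter hotspots, and by none beyond 2058 bp from its start. SPRED2, a gene of 122 kb, was overlapped by 18.

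AP-1, the dimer of FOS and JUN proteins that ERK signalling induces and activates, binds TGANTCA. The site was present in 35 of the 144 hotspots away from promoters (24.3%), against a mean of 19.4% over hotspots away from promoters of the same widths. In the 25 with a score of at least 10 it was present in 12 (48.0%), against 31.8% at the same widths. In the 119 weaker ones it was present in 23 (19.3%), against 16.8%. The share also rose with score over all hotspots away from promoters. It was 30.1% at a score of at least 10 and 14.05% below it. Among the genes, DUSP5 had the site in 9 of its 22 hotspots, SPRY4 in 8 of 28, SPRED2 in 6 of 33, DUSP1 in 4 of 23, SPRY1 in 4 of 13, DUSP4 in 2 of 20, SPRED1 in 2 of 6, IER3 in 2 of 3, DUSP6 in 1 of 8 and SPRY2 in 0 of 8.

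At promoters the AP-1 site was present in 3 of the 20 promoter hotspots (15%), against a mean of 21.3% of promoter hotspots of the same widths, and all 3 lay deep inside SPRED2. No hotspot over the main start of any of the 10 genes held the letters. Searched in the central 120 bp alone, 20 of the 164 hotspots had an AP-1 site and 3 a CIC site, against 38 and 9 in whole hotspots. A smaller window holds fewer sites, and no share over all hotspots is given for it, so the lower counts are not read further.

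The sequences below are AP-1 sites chosen from hotspots that held one. Some come from a row of 4 hotspots between 80.4 and 89.6 kb upstream of DUSP5, each with at least 1 site. Others come from the strongest upstream hotspots of SPRED1 and IER3 and from a hotspot of 400 bp with a score of 11.9 upstream of DUSP1. The last are from the innermost promoter hotspot of SPRED2 (211 bp, score 6.74). The hotspots away from promoters with scores of 30.6 and 18.02 at SPRED2 and 25.7 at DUSP1 held no AP-1 site. Stronger DUSP1 hotspots with the site, with scores of 16.7 and 14.5, are not printed. The 4 hotspots upstream of DUSP5 had scores of 9.31, 12.5, 10.5 and 8.83 and widths of 725, 1175, 789 and 362 bp, from the farthest to the nearest. Their sites are printed in the same order, at chr10:110408477-110408523, chr10:110410589-110410635, chr10:110414671-110414717, chr10:110414871-110414917 and chr10:110417515-110417561.
DUSP5 site a: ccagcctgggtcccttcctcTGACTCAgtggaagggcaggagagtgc
DUSP5 site b: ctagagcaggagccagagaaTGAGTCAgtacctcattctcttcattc
DUSP5 site c: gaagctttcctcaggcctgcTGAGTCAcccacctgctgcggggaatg
DUSP5 site d: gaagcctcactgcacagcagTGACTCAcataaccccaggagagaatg
DUSP5 site e: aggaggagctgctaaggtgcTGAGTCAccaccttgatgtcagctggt
All 5 of these have G or C at the free base of the motif.

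The site of SPRED1 lies at chr15:38218251-38218297 and that of IER3 at chr6:30752544-30752590. The stretch of SPRED2, chr2:65366723-65366799, holds 2 sites around annotated TSSs. In that of DUSP1, chr5:172778294-172778360, 7.13 kb upstream of the gene start, there are 2 AP-1 sites, and the second shares its letters with a CIC site (TTCATTCA).
SPRED1 upstream: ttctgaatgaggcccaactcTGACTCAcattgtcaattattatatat
IER3 upstream: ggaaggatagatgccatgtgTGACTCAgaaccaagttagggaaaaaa
SPRED2 inside: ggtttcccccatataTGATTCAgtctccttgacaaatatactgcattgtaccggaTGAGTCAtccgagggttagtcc
DUSP1 upstream: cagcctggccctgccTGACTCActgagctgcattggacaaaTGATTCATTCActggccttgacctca
A match of these letters shows that the sequence is there and not that a factor was bound.

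TEAD sites (NGGAATGN), also on either strand, were in 42 of the 164 hotspots (25.6%), against 22.2% at the same widths. The GC box (GGGGCGGGG), bound by SP and KLF factors, was in 7 of the 20 promoter hotspots (35.0%), against 40.4%. The ETS site (CCGGAAGT) was in 0 of the 20, against 6.23%, and in 3 of the 144 others, against 0.364%. One of these lay between 2 AP-1 sites in a hotspot of 581 bp with a score of 10.3, 23.3 kb upstream of DUSP6. The EGR site (GCGTGGGCG) was in 2 of the 164 hotspots (1.22%), the promoter hotspot of DUSP1 and one 49.5 kb inside SPRED2, against 0.635% at the same widths. Of the 12 promoter hotspots as wide as that of DUSP1 (itself included), 16.7% held the site. All these counts are small.

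The wide promoters were compared with 3 further lists of the pathway. Of 8 other DUSP, SPRY and SPRED genes all 8 had a promoter hotspot, as did 18 of 18 genes of the RAS-ERK cascade and 16 of 16 other genes that ERK induces or that mediate its response. These full counts are read against 77.2% of all protein-coding genes. The strongest promoter hotspot was at least 1500 bp wide at 7 of the 10 feedback genes, against 3 of the 8, 4 of the 18 and 8 of the 16, and its median width was 2196 bp, against 948, 1164 and 1408 bp. Over all genes with a promoter hotspot, 16.6% reached 1500 bp and the median width was 910 bp. In score the feedback genes were not the highest: their median was 22.9, against 20.6, 25.7 and 28.1. Among the highest scores in these lists were 41.0 at DUSP10 and 40.2 at DUSP16, phosphatases that prefer p38 and JNK, 38.3 at MAP2K1, a kinase that activates ERK, 47.5 at ETV5, an ETS factor repressed by CIC, and 42.5 at EPHA4, an ephrin receptor. Those 5 hotspots had widths between 644 and 2575 bp, and 1 of the 5, that of DUSP10, reached 1500 bp.

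**Figure D4:**
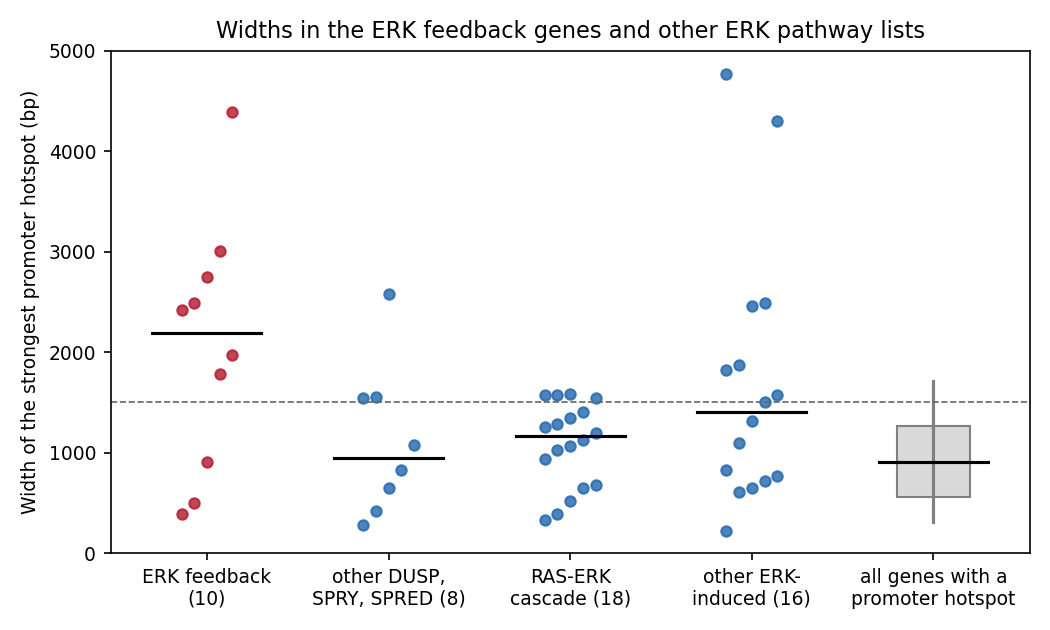
Width in bp of the strongest promoter hotspot of each gene in the ERK feedback genes (red), in 3 other lists of the pathway (blue) and, at the right, over all genes with a promoter hotspot. Black lines are medians, the box spans the 25th to 75th percentiles, its whisker the 10th to 90th, and the dashed line marks 1500 bp. The median is 2196 bp in the feedback genes and 910 bp over all genes, and the widest points are DUSP1 among the feedback genes and, above it, 1 other ERK-induced gene.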

How the data were processed

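The authors aligned the ATAC-seq reads of 5 replicates to hg38 with Bowtie2, pooled them and removed duplicates. They then called hotspots with Hotspot at a false discovery rate of 0.01. Neighbouring enriched windows were merged in that step, so that widths depend on it. No shift for Tn5 is given in the sources used here. The deposited list holds 1 score per hotspot, as Hotspot wrote it, and it was used as given. Depth is unknown.

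TSSs were those of all transcripts of 20033 protein-coding genes in GENCODE release 44. Motifs were searched on both strands of hg38 and set against hotspots of the same kind within 10% of the width. The search and overlap functions were tested on simulated data. Since 1 pooled list has no replicates, no test was run. Members and lists were chosen with earlier results of these data known. All 10 members are named, and of each other list the genes without a promoter hotspot (none) and the 2 with the highest scores, of which 1 is not reported here. Alternatives were other TSS windows, TSS sets, overlap rules, distance limits, scores above the median, and leaving out 2 genes. Software was Python 3.11.15 with numpy 2.4.6, pandas 2.3.3 and matplotlib 3.10.9.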

Additional observations from a re-analysis of the deposited data

How the results depend on the processing

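Of 65 values recomputed under other settings, 53 stayed within 1.5 times the reported count or within 1 step of the score. All 10 genes kept a promoter hotspot under each TSS rule tried, and 7 kept one of at least 1500 bp with a single TSS per gene or with protein-coding transcripts alone (both added after seeing the data). The other 12 were these. With a single TSS per gene, promoter hotspots numbered 12. Above the median score, 82 hotspots were assigned (median 8 per gene, against 2 over all genes) and 27 overlapped the genes. With TSSs of genes of any type, 64 were assigned (median 5.5), 13 of them with an AP-1 and 4 with a CIC site. Without SPRY4 and DUSP1 the median was 10.5, and 5 hotspots had a CIC site. In the central 120 bp, 20 had an AP-1 and 3 a CIC site. No paired analysis was possible because the 5 replicates were pooled into 1 list, which also allowed no replicate to be left out.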

Other observations

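Genes outside the feedback group showed the same covering of a short gene as DUSP1. These were chosen after their values were seen. At IER2 the strongest promoter hotspot was 4767 bp wide with a score of 32, and hotspots covered 83.9% of the gene. At EGR1 it was 4305 bp wide with a score of 37.1, and 67.9% of the gene was covered. At FOS it was 1823 bp wide with a score of 26.5, and 65.9% was covered. All are immediate-early genes of 3.4 to 4.5 kb that growth factors induce. EGR1, like DUSP1, lies on chromosome 5 beyond 120 Mb. Within 0.5 Mb on either side of its start there were 137 hotspots, against a median of 88 over all genes.

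The scores of the list fell on a ladder. The 9 most frequent scores ran from 4.48 to 7.49 in equal steps of 0.376 and were carried by 20.6% of all hotspots. Within 0.5% of a step, 30.9% of all hotspots and 51 of the 164 hotspots of the feedback genes (31.1%) lay on this ladder or its continuation. The score of the IER3 promoter hotspot, which is on it, was carried by 338 hotspots. None of the 28 hotspots of SPRY4 and 1 of the 23 of DUSP1 were on it, against 21 of 33 at SPRED2, and in the part of chromosome 5 beyond 120 Mb 17.97% were.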
